A study of Mus musculus with 11 samples.

Results

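The genes described here are 48 genes of mitosis and chromosome segregation, read in RNA-seq libraries of spleen and lymph node (LN) from immunised mice. They are the rows of the deposited table whose symbol stands in a list of 50 mitotic genes, and the table holds 10885 genes in all. The members Melk and Pbk were not analysed here. The list was not chosen by a threshold on these values, but earlier results of these data were known when it was chosen. The mice were of 3 genotypes: Wild-type (Wt, mice 1 and 2), Transgenic (3'RR-BCL2) (Tg, mice 3 and 4) and Knock-in (Igk-BCL2) (KI, mice 5 and 6). In Tg mice an added copy of BCL2, an inhibitor of apoptosis, is driven by 3'RR, the enhancer cluster downstream of the Igh constant genes that is used by B lineage cells. In KI mice BCL2 sits in the Igk locus, which is read in the same lineage. All mice, Wt included, received sheep red blood cells intraperitoneally in 3 immunisations over 3 months, and tissue was taken 1 month after the last. RNA came from dissociated whole-tissue cells, so each library mixes all cell types of the tissue. The 11 libraries fall into 6 groups of tissue and genotype with 2 mice each, except spleen Tg, for which only mouse 4 was used here. The sources used here give no strain, age, sex or number of founder lines.

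A cell enters mitosis when Cdk1, bound to A- and B-type cyclins, is switched on and the spindle attaches to kinetochores built on centromeric chromatin. The spindle checkpoint holds anaphase until every chromosome is attached, and separase, the central spindle and the contractile ring then part the chromosomes and the daughter cells. Most of these genes are transcribed late in the cell cycle under MuvB complexes and Foxm1 and are kept low in resting cells. In lymphoid tissue most lymphocytes rest, whereas germinal centre B cells and plasmablasts divide after immunisation.

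The values are normalised read counts, here called normalised reads: reads of a gene divided by 1 factor per library, so levels of a gene compare across libraries but not between genes of different length. Each library held between 11128568 and 24110325 recovered reads. Differences are log2(normalised reads + 1) with the standard error (SE) of a limma-trend fit of 6 group means over the 11 libraries, and a gene was called at a Benjamini-Hochberg adjusted p under 0.05 over all 10885 genes. The adjusted p values given for single genes are from that limma fit. The SE rests on 1 spread per gene shared by the 6 groups, moderated across genes, with 5 residual degrees of freedom. The groups hold 2 mice each, except spleen Tg with 1. The 11 libraries come from 6 mice, so they are not all separate animals. The table's Bcl2 row, the mouse gene, stood between 2065 and 3171 in the 7 Wt and Tg libraries but between 1246 and 1664 in the 4 KI libraries. The sources used here do not say whether reads of the inserted BCL2 count towards that row, so it does not check the genotype labels. As a check of the tissue labels, all 12 markers of red pulp macrophages, a cell of the spleen, were called lower in LN than in spleen of KI mice.

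The 48 genes stood highest in the LN of both KI mice. The mean of log2(normalised reads + 1) over the 48 genes was 9.06 in KI mouse 5 LN and 8.72 in KI mouse 6 LN. It was 7.72 and 7.68 in the LN of Wt mice 1 and 2, and 7.87 and 7.50 in the LN of Tg mice 3 and 4. In spleen it was 7.66 and 8.27 in Wt mice 1 and 2, 8.14 in Tg mouse 4, and 7.82 and 7.27 in KI mice 5 and 6. All 9 libraries other than KI LN therefore lay between 7.27 and 8.27 on this scale, below both KI LN libraries. For 44 of the 48 genes both KI LN values were above all 9 other libraries, as they were for 9.78% of all genes. The exceptions were Ube2c, Cenpa, Racgap1 and Smc4. Ttk, Anln and Spc25 reached 109.3 normalised reads, the lowest maximum of any gene of the table, only in KI LN. If genes were kept by such a floor, these genes stand in the table only through their KI LN level. Their place in this count and among the KI LN calls below is then no separate support. KI mouse 5 stood above KI mouse 6 for 46 of the 48 genes in LN and for 47 in spleen, against 52.9% and 45.1% of all genes. Wt mouse 2 stood above Wt mouse 1 for 46 in spleen but for 20 in LN, against 53.0% and 45.9% of all genes.

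**Figure D1:**
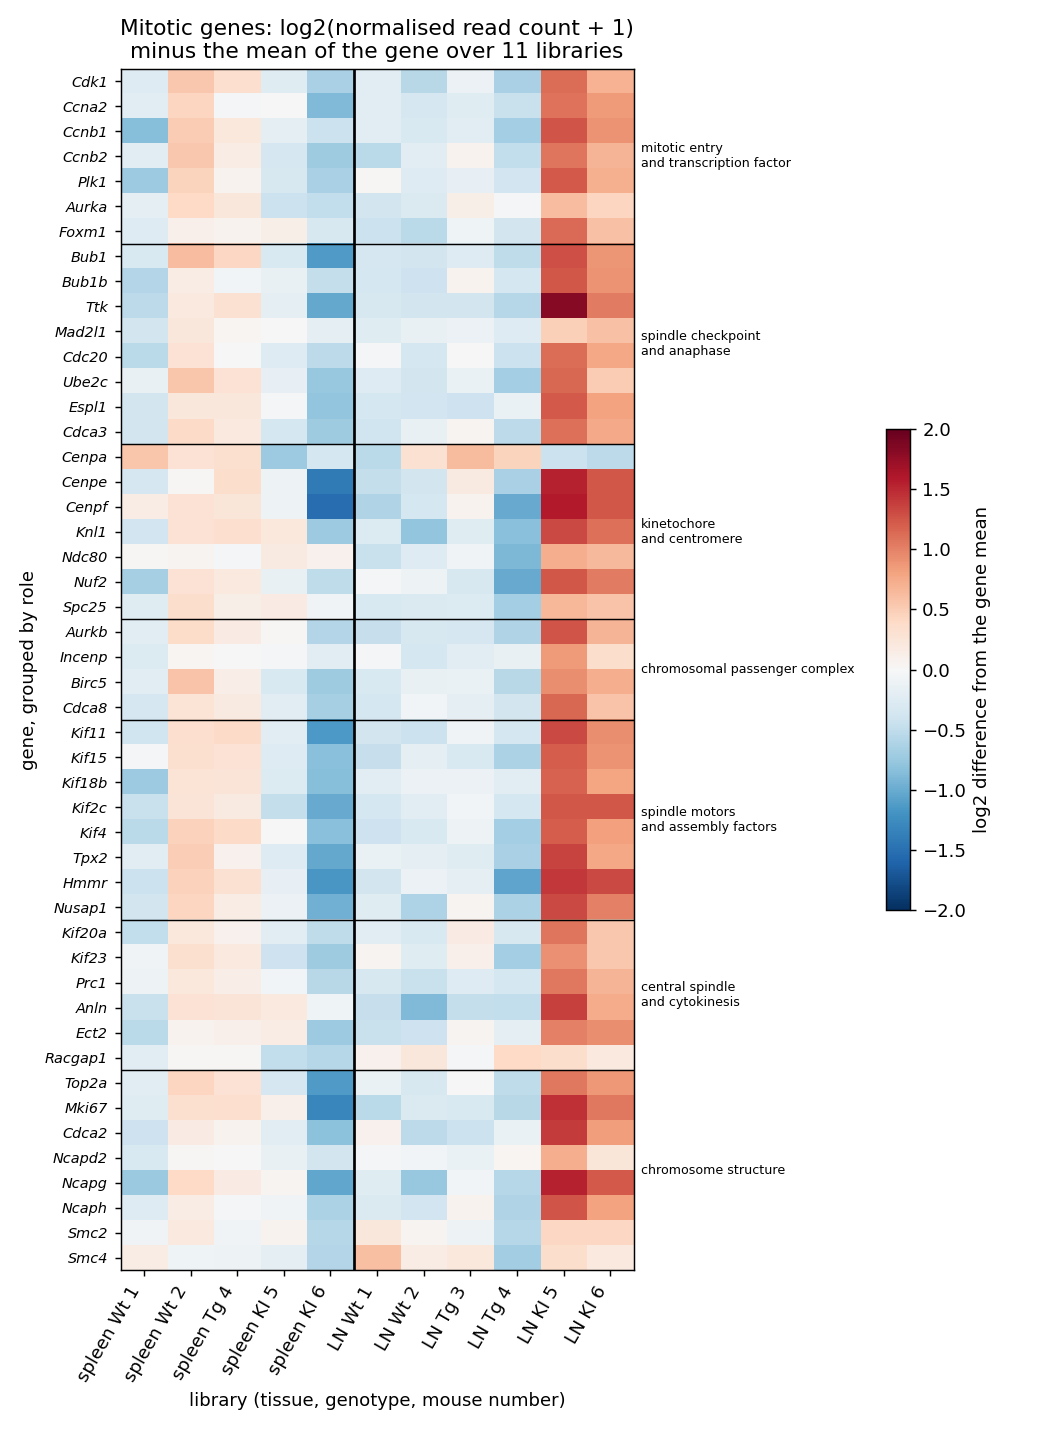
Each row is 1 of the 48 mitotic genes, grouped by role, and each column 1 library, with mouse numbers; colour gives log2(normalised reads + 1) minus the mean of the gene over the 11 libraries. The 2 KI LN columns are red for nearly all genes, KI mouse 6 is the bluest spleen column, and Cenpa, Racgap1, Smc2 and Smc4 break the pattern.

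In LN, 44 of the 48 genes were higher in KI than in Wt mice and 0 were lower, where 13.8% of all genes were called higher and 12.2% lower. The median difference of the 48 genes was 1.25 on the log2 scale, a 2.38-fold higher level, against -0.024 over all genes. The called differences ran from 0.53 for Ncapd2 to 1.89 for Cenpf. Both KI values were above both Wt values for 45 of the 48 genes, against 32% of all genes, and above all 4 other LN libraries for the same number, against 25.9% of all genes. The 4 genes not called were Cenpa, Racgap1, Smc2 and Smc4. The count rests on all 4 libraries, and calls were lost whichever library was left out. Most of the 44 were lost without the LN of either Wt mouse, and more without that of KI mouse 5. Such a fit has 1 library in a group and is weaker for every gene. All 44 differences stayed positive each time, from 0.29 to 1.72 without KI mouse 5 and from 0.67 to 2.16 without KI mouse 6. Aurkb, Bub1b, Ect2, Espl1, Foxm1, Kif15, Kif2c and Prc1 kept their call in each of the 19 alternatives tried.

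Markers of several cell types moved with the mitotic genes in LN. Of 12 germinal centre B cell markers 11 were higher in KI than in Wt LN, and their summed level was 5280 and 4613 in Wt, 9682 and 7649 in Tg, and 29889 and 22917 in KI. Of 12 plasma cell markers 11 were higher, with sums of 11920 and 15790 in Wt, 21096 and 16634 in Tg, and 159252 and 163583 in KI. All 10 pan T cell markers were lower, with sums of 71182 and 67286 in Wt, 62231 and 63855 in Tg, and 30164 and 35771 in KI. Of 8 pan B cell markers 5 were higher, with sums of 56669 and 64388 in Wt, 66538 and 62292 in Tg, and 100811 and 81254 in KI. Of 12 red pulp macrophage markers 8 were lower, with sums of 2427 and 1727 in Wt, 2729 and 2885 in Tg, and 1123 and 965 in KI. None of these markers was at 0 in any library. Their part in the difference of the mitotic genes was not tested, and in whole tissue a larger number of dividing cells and more mitotic RNA per cell cannot be told apart.

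Since these genes moved together, the start regions of the 5 called members with the smallest p that the promoter table held are shown, from 250 bases before to 30 bases after the start of transcription (RefSeq, GRCm38.p6), read on the strand of the gene. Capitals mark TTTGAA and TTCGAA, the core of the cell cycle genes homology region through which MuvB complexes bind late cell cycle promoters, and CCAAT, the box bound by NF-Y. TTCAAA and ATTGG are TTTGAA and CCAAT read on the other strand, and TTCGAA reads alike on both. Of Bub1b (chr2:118597961-118598240, + strand), Prc1 (chr7:80294201-80294480, + strand, 1 of its 2 promoters in the table), Kif15 (chr9:122950831-122951110, + strand), Kif2c (chr4:117178743-117179022, - strand) and Anln (chr9:22389177-22389456, - strand), each holds at least 1 such match in the printed stretch.
Bub1b: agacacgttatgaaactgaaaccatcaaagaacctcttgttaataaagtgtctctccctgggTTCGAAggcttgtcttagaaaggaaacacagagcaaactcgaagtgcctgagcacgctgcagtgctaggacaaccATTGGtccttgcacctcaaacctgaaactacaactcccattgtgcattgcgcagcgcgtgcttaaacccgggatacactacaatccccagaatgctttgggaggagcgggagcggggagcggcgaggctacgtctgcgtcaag
Prc1: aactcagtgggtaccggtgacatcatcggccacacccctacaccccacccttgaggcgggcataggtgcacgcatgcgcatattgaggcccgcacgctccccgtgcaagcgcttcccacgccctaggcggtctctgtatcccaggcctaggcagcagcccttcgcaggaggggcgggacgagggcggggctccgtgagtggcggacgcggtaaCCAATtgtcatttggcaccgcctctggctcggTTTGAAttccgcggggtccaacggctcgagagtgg
Kif15: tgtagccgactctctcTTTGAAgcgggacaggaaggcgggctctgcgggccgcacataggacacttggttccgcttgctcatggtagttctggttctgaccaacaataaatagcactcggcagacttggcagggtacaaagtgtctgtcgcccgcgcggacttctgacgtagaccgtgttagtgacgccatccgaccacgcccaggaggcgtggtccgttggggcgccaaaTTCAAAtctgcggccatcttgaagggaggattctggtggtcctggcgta
Kif2c: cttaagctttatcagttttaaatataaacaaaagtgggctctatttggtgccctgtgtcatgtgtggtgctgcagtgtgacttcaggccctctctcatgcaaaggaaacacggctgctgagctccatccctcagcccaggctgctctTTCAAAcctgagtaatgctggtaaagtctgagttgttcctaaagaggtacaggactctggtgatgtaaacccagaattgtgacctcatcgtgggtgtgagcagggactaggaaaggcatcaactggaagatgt
Anln: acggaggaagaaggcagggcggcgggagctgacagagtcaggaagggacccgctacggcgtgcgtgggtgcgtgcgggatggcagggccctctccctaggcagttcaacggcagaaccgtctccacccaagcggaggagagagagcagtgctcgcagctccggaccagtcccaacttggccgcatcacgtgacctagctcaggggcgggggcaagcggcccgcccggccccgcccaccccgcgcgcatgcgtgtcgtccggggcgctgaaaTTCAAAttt
In Prc1 a CCAAT box 37 bases before the start and TTTGAA 5 bases before it stand close together. In Kif15 the match nearest the start lies 19 bases before it, in Kif2c 103 bases before it, and in Anln 21 bases after it. In Bub1b TTCGAA lies 188 bases before the start and the CCAAT box 113 bases before it, and a further TTTGAA starts 40 bases after it, beyond the printed stretch.

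The promoter table matched 40 of the 48 genes with 42 promoters, each of 250 bases before to 50 after the start. The others were Aurkb, Ccna2, Cdca2, Foxm1, Incenp, Kif20a, Smc4 and Tpx2. On either strand TTTGAA was present in 34 of the 42 promoters, or 81.0%, against 12.4% of the 10842 promoters of genes in the deposited table and 17.9% of all 32851 promoters. CCAAT was present in 76.2%, against 37.6% of the promoters of genes in the deposited table. TTCGAA was rarer, at 7.14% against 2.20%. A CCAAT box together with TTTGAA or TTCGAA was present in 71.4% against 5.76%. These shares describe the letters only and are not binding sites. The S phase genes, which are transcribed earlier in the cycle, held TTTGAA in 4 of 35 promoters, or 11.4%, and CCAAT in 54.3%. The median GC content was 58.8% in the promoters of the mitotic genes and 60.7% in those of genes in the deposited table. The promoters of Cenpa, Racgap1 and Smc2, which were not called higher in KI LN, also held both motifs.

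All 7 genes of mitotic entry were higher in KI than in Wt LN, with a median difference of 1.25. Foxm1, the transcription factor that drives many late cell cycle genes, was at 239 and 222 in the LN of Wt mice 1 and 2, 306 and 251 in that of Tg mice 3 and 4, and 707 and 485 in that of KI mice 5 and 6 normalised reads. Both KI libraries lay above every other LN library, and the difference from Wt was 1.34 ± 0.22 (limma adjusted p = 0.00176), a 2.54-fold higher level. In spleen Foxm1 was at 270.2 and 346 in Wt mice 1 and 2, 339 in Tg mouse 4 and 351 and 257 in KI mice 5 and 6, so that the KI and Wt values there overlapped. Cdk1, the kinase that starts mitosis, was at 121 and 96.3 in the LN of Wt mice 1 and 2, 130.2 and 89.5 in that of Tg mice 3 and 4, and 309.5 and 229 in that of KI mice 5 and 6. The KI values were again the 2 highest, with a difference of 1.29 ± 0.31 from Wt (limma adjusted p = 0.0112). Its partner Ccnb1, cyclin B1, differed by 1.35 ± 0.38 and Ccna2, cyclin A2, by 1.25 ± 0.29. Plk1, a kinase of mitotic entry and spindle assembly, was at 218 and 178 in the LN of Wt mice 1 and 2, 189.6 and 164 in that of Tg mice 3 and 4, and 502 and 348 in that of KI mice 5 and 6, a difference of 1.08 ± 0.35 close to the threshold (limma adjusted p = 0.0459). Aurka, the centrosomal Aurora kinase, had the smallest difference of the group at 0.86 ± 0.21.

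All 8 genes of the spindle checkpoint and anaphase were higher in KI LN, with a median difference of 1.29. Bub1b, which encodes the checkpoint protein BubR1 and whose promoter is printed above, was at 290.3 and 278 in the LN of Wt mice 1 and 2, 391 and 290.3 in that of Tg mice 3 and 4, and 879 and 694 in that of KI mice 5 and 6. Its KI values exceeded every other library of both tissues, and the difference from Wt was 1.46 ± 0.25 (limma adjusted p = 0.00224). Ttk, the kinase Mps1 that recruits the checkpoint to kinetochores, had the largest difference of the group, 1.77 ± 0.42. It reached 109.3 normalised reads only in KI LN, so its high level there may have been a condition of its place in the table. Ttk was at 45.2 and 43.8 in the LN of Wt mice 1 and 2, 43.9 and 38 in that of Tg mice 3 and 4, and 202 and 117 in that of KI mice 5 and 6, and KI mouse 5 stood far above KI mouse 6. Espl1, the protease separase that cuts cohesin at anaphase, was at 177 and 174 in the LN of Wt mice 1 and 2, 169.8 and 208 in that of Tg mice 3 and 4, and 533 and 397 in that of KI mice 5 and 6. Its difference from Wt was 1.38 ± 0.28 (limma adjusted p = 0.00516), and both KI values stood apart from the other 4. Mad2l1, the checkpoint protein that sequesters Cdc20, had the smallest difference of the group, 0.73 ± 0.19. Cdc20, the activator of the anaphase-promoting complex, differed by 1.13 ± 0.27 and Ube2c, the ubiquitin-conjugating enzyme that works with it, by 1.14 ± 0.32.

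Of 7 kinetochore and centromere genes 6 were higher in KI LN. Knl1, the scaffold on which Bub1 and BubR1 assemble, was at 119 and 83.1 in the LN of Wt mice 1 and 2, 122 and 81 in that of Tg mice 3 and 4, and 363 and 311 in that of KI mice 5 and 6. The KI values did not overlap the others, and the difference from Wt was 1.75 ± 0.35 (limma adjusted p = 0.00557). Ndc80, a subunit of the complex that grips microtubules, was at 156 and 177 in the LN of Wt mice 1 and 2, 202 and 114 in that of Tg mice 3 and 4, and 355 and 336 in that of KI mice 5 and 6, a difference of 1.05 ± 0.24 (limma adjusted p = 0.00898). Its complex partners Nuf2 and Spc25 differed by 1.21 ± 0.34 and 0.91 ± 0.30. Spc25 reached 109.3 normalised reads only in KI LN. Cenpf, a late-cycle kinetochore protein, had the largest difference of all 48 genes, and Cenpe, a kinetochore motor, followed within the group. Cenpf was at 113 and 135 in the LN of Wt mice 1 and 2, 179.7 and 85.2 in that of Tg mice 3 and 4, and 517 and 409 in that of KI mice 5 and 6, a difference of 1.89 ± 0.48, and Cenpe differed by 1.82 ± 0.42.

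Cenpa, the histone H3 variant that marks centromeres, went against the other members of that group. It was at 871 and 1577 in the LN of Wt mice 1 and 2, 1979 and 1729 in that of Tg mice 3 and 4, and 944 and 888 in that of KI mice 5 and 6. Wt mouse 1 lay below both KI mice and Wt mouse 2 above them, so the LN groups overlapped, and the difference of -0.36 ± 0.26 between KI and Wt was not called (limma adjusted p = 0.358). Its sign rests on Wt mouse 2: without that mouse it was 0.072, and without Wt mouse 1 it was -0.78 and called (limma adjusted p = 0.0174). In spleen Cenpa was at 1871 and 1556 in Wt mice 1 and 2, 1582 in Tg mouse 4 and 772 and 999 in KI mice 5 and 6. Both KI spleens lay below all 3 other spleens.

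The 4 genes of the chromosomal passenger complex, which corrects faulty attachments and later acts in cytokinesis, were all higher in KI LN. Aurkb, its kinase, was at 179 and 196 in the LN of Wt mice 1 and 2, 195 and 162 in that of Tg mice 3 and 4, and 590.5 and 395 in that of KI mice 5 and 6. The difference was 1.36 ± 0.27 (limma adjusted p = 0.00481), with both KI values above the other 4. Incenp, the scaffold of the complex, was at 829 and 664 in the LN of Wt mice 1 and 2, 727 and 766 in that of Tg mice 3 and 4, and 1530.0 and 1084 in that of KI mice 5 and 6, where KI mouse 6 stood closer to the Wt range than KI mouse 5. Its difference was 0.79 ± 0.18 (limma adjusted p = 0.00904), the smallest of the 4. Birc5, survivin, and Cdca8, borealin, target the complex to centromeres and each differed by 1.06, with SEs of 0.28 and 0.26.

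All 8 spindle motors and assembly factors were higher in KI LN, and their median of 1.45 was the highest of the 7 roles. Kif15, a motor that helps hold the spindle bipolar, was at 121 and 147 in the LN of Wt mice 1 and 2, 136 and 108 in that of Tg mice 3 and 4, and 389 and 313 in that of KI mice 5 and 6. The difference was 1.38 ± 0.25 (limma adjusted p = 0.00275), and the KI values did not overlap those of any other library. Kif2c, which removes tubulin from microtubule ends at kinetochores, was at 79 and 86.4 in the LN of Wt mice 1 and 2, 97.7 and 79.3 in that of Tg mice 3 and 4, and 239 and 239 in that of KI mice 5 and 6. Here both KI mice had nearly the same value, and the difference was 1.52 ± 0.29 (limma adjusted p = 0.00373). Kif11, the motor that pushes the poles apart, differed by 1.52 ± 0.33. Tpx2, which activates Aurora A on the spindle, differed by 1.23 ± 0.32. Hmmr and Nusap1, both microtubule-binding spindle proteins, differed by 1.61 ± 0.41 and 1.60 ± 0.36. Kif4, a chromosome-bound motor, and Kif18b, which shortens astral microtubules, differed by 1.37 ± 0.38 and 1.15 ± 0.32.

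Of 6 genes of the central spindle and cytokinesis 5 were higher in KI LN. Prc1, which bundles the microtubules of the central spindle, was at 147 and 136 in the LN of Wt mice 1 and 2, 154 and 144 in that of Tg mice 3 and 4, and 385 and 297 in that of KI mice 5 and 6. The difference was 1.25 ± 0.22 (limma adjusted p = 0.00252), with KI values above all other libraries. Anln, a scaffold of the contractile ring, was at 51.6 and 38.3 in the LN of Wt mice 1 and 2, 51 and 50.6 in that of Tg mice 3 and 4, and 185 and 119.5 in that of KI mice 5 and 6, a difference of 1.72 ± 0.35 (limma adjusted p = 0.00491). Anln too reached 109.3 normalised reads only in KI LN. Ect2, the exchange factor that activates RhoA for furrowing, differed by 1.40 ± 0.30 and Kif20a, a motor of the central spindle, by 1.07 ± 0.28. Kif23 and Racgap1 encode the partners of centralspindlin, yet only Kif23 was called. Kif23 was at 381 and 308 in the LN of Wt mice 1 and 2, 393 and 229.6 in that of Tg mice 3 and 4, and 691 and 534 in that of KI mice 5 and 6, a difference of 0.83 ± 0.26. Racgap1 was at 1019 and 1120.2 in the LN of Wt mice 1 and 2, 941 and 1265 in that of Tg mice 3 and 4, and 1225 and 1093 in that of KI mice 5 and 6, with the highest value in a Tg mouse, and its difference of 0.11 ± 0.15 was not called (limma adjusted p = 0.629). Whether the 2 genes differ from each other was not tested.

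Of 8 genes of chromosome structure 6 were higher in KI LN. Mki67, the coat protein of mitotic chromosomes used as a marker of cycling cells, was at 1203 and 1432 in the LN of Wt mice 1 and 2, 1414 and 1194 in that of Tg mice 3 and 4, and 4818 and 3639.8 in that of KI mice 5 and 6. The KI values were the 2 highest of all 11 libraries, but with a difference of 1.67 ± 0.47 the gene passed the threshold only just (limma adjusted p = 0.0495). Top2a, which untangles sister DNA, differed by 1.19 ± 0.32 and Cdca2, a chromatin-bound phosphatase subunit, by 1.33 ± 0.31. The 3 subunits found only in condensin I were all called, whereas the ATPases Smc2 and Smc4, which condensins I and II share, were not. Ncaph, the subunit that joins the ATPases, was at 192 and 179 in the LN of Wt mice 1 and 2, 246 and 154 in that of Tg mice 3 and 4, and 564 and 409 in that of KI mice 5 and 6, a difference of 1.37 ± 0.28 (limma adjusted p = 0.00521). Ncapg differed by 1.88 ± 0.46 and Ncapd2 by 0.53 ± 0.17. Smc2 was at 735 and 653 in the LN of Wt mice 1 and 2, 589 and 424 in that of Tg mice 3 and 4, and 844 and 845 in that of KI mice 5 and 6. Its KI values were the 2 highest in LN but the difference from Wt was 0.28 ± 0.22 (limma adjusted p = 0.376). Smc4 was at 6154 and 4467 in the LN of Wt mice 1 and 2, 4689 and 2489 in that of Tg mice 3 and 4, and 5139 and 4611 in that of KI mice 5 and 6, so that the KI values fell inside the range of Wt, with a difference of -0.11 ± 0.31 (limma adjusted p = 0.841). The sign for Smc4 turned to 0.038 when immunoglobulin and haemoglobin genes were removed and the libraries rescaled, a step that moved the median of all genes by 0.15, and to 0.12 without Wt mouse 1. Of the condensin II subunits, which are not among the 48 genes, Ncapg2 was called at 1.22, and Ncapd3 at 0.087 and Ncaph2 at 0.039 were not.

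**Figure D2:**
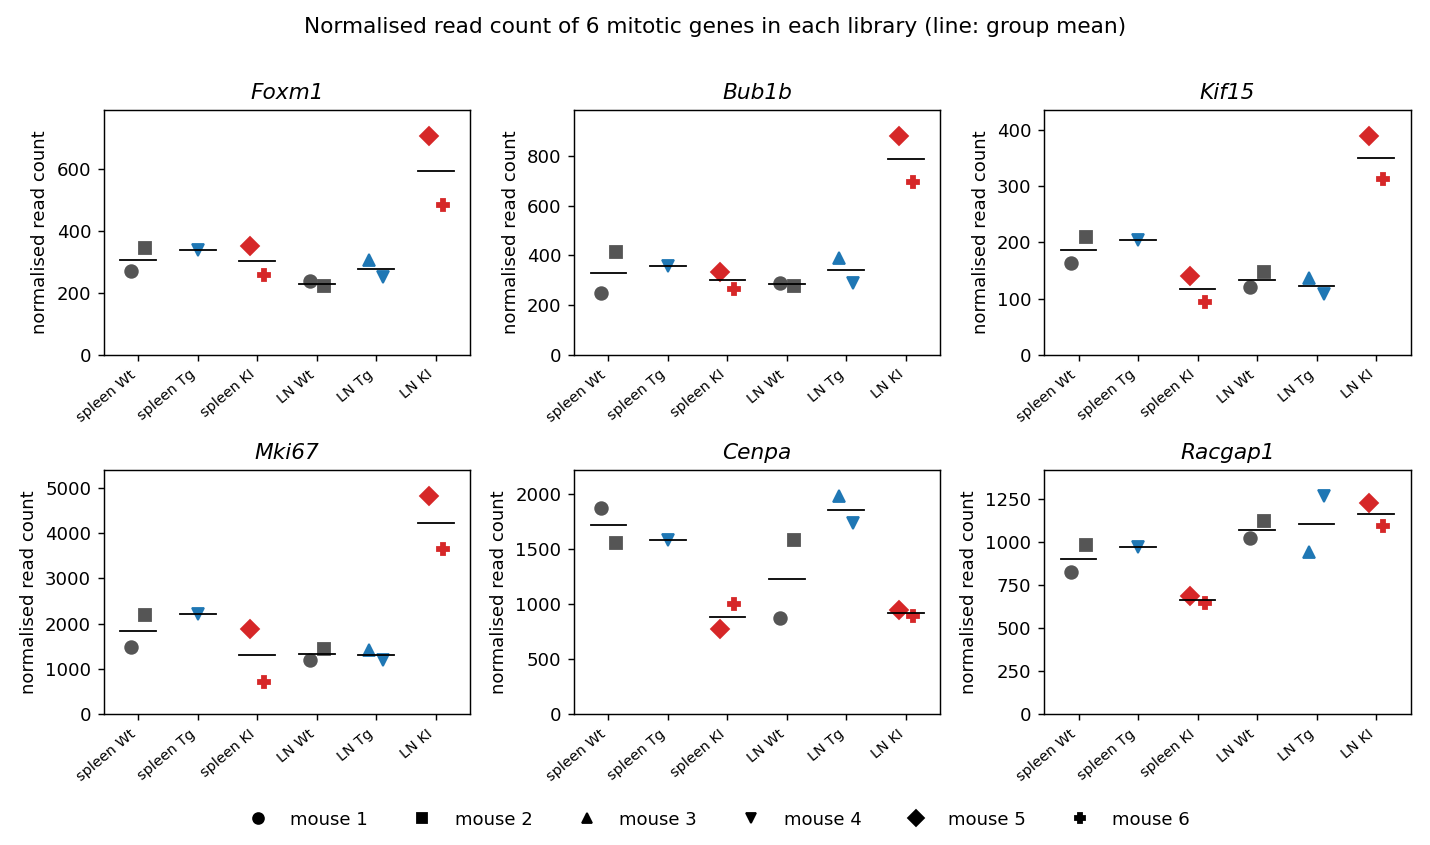
Normalised reads of 6 mitotic genes in each library, with 1 symbol per mouse, colour for genotype and a line at the group mean. Foxm1, Bub1b, Kif15 and Mki67 are highest in both KI LN libraries, whereas Cenpa is low in all 4 KI libraries and in the LN of Wt mouse 1, and Racgap1 is lowest in KI spleen.

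In spleen the same comparison gave no rise. Of the 48 genes 0 were higher in KI than in Wt and 1, Cenpa, was lower, where 7.63% of all genes were called higher and 9.21% lower. The median difference of the 48 genes was -0.41, against 0.0056 over all genes, and 45 differences were negative. For 14 of the 48 genes both KI spleens lay below both Wt spleens, a share close to the 31.9% of all genes. At an unadjusted p under 0.05 the limma fit held 11 of the 48 genes and 3522 of all genes. Cenpa fell by 0.96 on the log2 scale (SE 0.26, limma adjusted p = 0.0385). Leaving out any of the 4 spleen libraries alone ended that call, with differences between -1.14 and -0.77. The median moved with each spleen library: it was -0.10 without KI mouse 6, -0.69 without KI mouse 5, -0.14 without Wt mouse 2 and -0.81 without Wt mouse 1. The count was 3 without the spleen of KI mouse 5 and 0 without that of each other mouse compared. Besides Cenpa, the lowest differences were -1.03 ± 0.48 for Cenpf and -0.88 ± 0.35 for Bub1, a checkpoint kinase, neither of them called. Cenpf was at 190.3 and 209 in Wt mice 1 and 2, 204 in Tg mouse 4 and 159.5 and 58.8 in KI mice 5 and 6, where only KI mouse 6 stood far from the rest. Mki67 was at 1484 and 2187 in Wt mice 1 and 2, 2209 in Tg mouse 4 and 1882 and 710.0 in KI mice 5 and 6, with the same mouse apart.

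Markers of other cells also differed between these spleens. The summed level of 12 neutrophil and precursor markers was 6335 and 49886 in Wt mice 1 and 2, 43007 in Tg mouse 4, and 2192 and 6682 in KI mice 5 and 6, with 0 of 12 called. Wt mouse 2 and Tg mouse 4, which carried the high sums, were also the 2 spleens with the highest mean of the mitotic genes. The KI spleens went the other way: mouse 6 had the higher neutrophil sum but the lower mean, 7.27 against 7.82 in mouse 5. The summed level of 13 erythroblast markers was 2960 and 2679 in Wt, 3182 in Tg, and 28469 and 5450 in KI, with 2 called higher and 1 lower. KI mouse 5 thus had the highest erythroblast sum and stood above KI mouse 6 in the mitotic genes. KI mouse 6, however, had a higher erythroblast sum than the Wt and Tg spleens but the lowest mean of the mitotic genes. Germinal centre B cell markers were higher in KI spleen for 6 of 12, with sums of 4405 and 5019 in Wt, 6511 in Tg, and 10310 and 7672 in KI. All 10 pan T cell markers were lower in KI spleen, with sums of 35023 and 36122 in Wt, 33628 in Tg, and 16337 and 17570 in KI. Of 12 plasma cell markers 9 were higher and 1 lower, with sums of 33580 and 30314 in Wt, 32825 in Tg, and 140628 and 89476 in KI. None of these spleen markers was at 0, and their part in the values of the mitotic genes was not tested.

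The difference between KI and Wt was tested between tissues as an interaction, the LN difference minus the spleen difference. All 48 interactions were positive, with a median of 1.69 against -0.011 over all genes, and the fit without the mouse called 3 of the 48, where 0.763% of all genes were called higher and 0.193% lower. Kif15 was called at 2.08 ± 0.35 (limma adjusted p = 0.0297), Kif2c at 2.18 ± 0.41 (limma adjusted p = 0.0412) and Prc1 at 1.61 ± 0.32 (limma adjusted p = 0.0455). Kif15 shows the pattern in single libraries: in spleen it was at 163 and 210.0 in Wt mice 1 and 2, 204 in Tg mouse 4 and 139.8 and 93.1 in KI mice 5 and 6, with both KI mice below the other 3, whereas in LN both KI mice stood above the other 4. Kif2c was at 74.3 and 120.3 in Wt mice 1 and 2, 114 in Tg mouse 4 and 72 and 49.4 in KI mice 5 and 6 in spleen, again with both KI values lowest. Prc1 was at 172 and 212 in Wt mice 1 and 2, 203 in Tg mouse 4 and 178 and 125 in KI mice 5 and 6 in spleen, where KI mouse 5 overlapped the Wt range. Since each mouse except mouse 3 gave both tissues, the mouse was also fitted as a block, which called 32 of the 48 genes, where 5.48% of all genes were called. With the block Kif15 had an adjusted p of 0.00186, Kif2c of 0.007, Prc1 of 0.00665 and Cenpf of 0.00157, all by limma. Leaving out single libraries or mice moved the count without the block in either direction. Kif15, Kif2c and Prc1 each lost the call in most of these fits. The median of the 48 interactions then lay between 1.32 and 2.06.

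**Figure D3:**
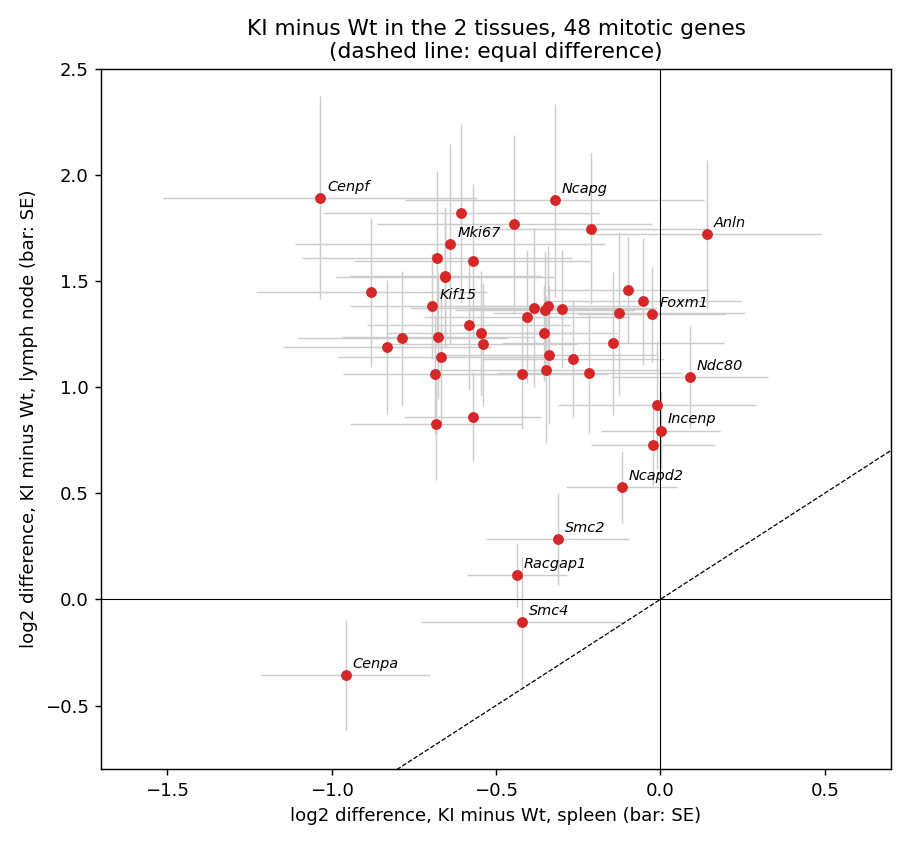
Each point is 1 of the 48 mitotic genes, with the log2 difference between KI and Wt mice in spleen on the horizontal axis and in LN on the vertical axis, and bars of 1 SE of the limma fit. All points lie above the dashed line of equal differences, most of them left of 0 on the spleen axis and above 0.5 on the LN axis.

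Within single mice the tissues could be compared directly. In KI mouse 5 LN stood above spleen for 48 of the 48 genes, with a median of 1.35, and in KI mouse 6 for 47, with a median of 1.41. The shares of all genes were 54.7% and 48.5%. The gene that went the other way in KI mouse 6 was Cenpa. In Wt mouse 1 LN stood above spleen for 28 genes with a median of 0.067, in Wt mouse 2 for 3 with a median of -0.62, and in Tg mouse 4 for 3 with a median of -0.70. In these mice the shares of all genes were 54.2%, 48.6% and 49.7%. The medians over all genes lay between -0.012 and 0.040 in these 5 mice. By the limma fit 39 of the 48 genes were higher in LN than in spleen of KI mice, where 4.78% of all genes were called higher and 4.49% lower, and 0 of the 48 were lower. Both KI LN libraries lay above both KI spleens for 47 of the 48 genes, against 28.7% of all genes. The mouse as a block raised this to 44, where 13.5% of all genes were called in either direction. The 39 calls of the fit without the block rested on both KI mice. Leaving out single libraries or mice lowered their number each time, most without KI mouse 6 in both tissues. That fit holds KI mouse 5 alone for KI and is weaker for every gene. Across all these leave-outs the median difference of the 48 genes lay between 1.13 and 1.60. Kif2c had the smallest p, with 1.98 ± 0.29 (limma adjusted p = 0.00242), and Kif15 followed with 1.60 ± 0.25 (limma adjusted p = 0.00331). Racgap1, although level between KI and Wt in LN, was also higher in KI LN than in KI spleen, by 0.80 ± 0.15, since its KI spleen values of 683 and 642 were the 2 lowest of all 11 libraries. Cell markers differed between the KI tissues too: of 12 germinal centre B cell markers 7 were higher in LN, with sums of 29889 and 22917 in LN of KI mice 5 and 6 against 10310 and 7672 in spleen. All 10 pan T cell markers were higher in LN, at 30164 and 35771 against 16337 and 17570, and all 12 red pulp macrophage markers were lower, at 1123 and 965 against 12319 and 12578. Of 8 pan B cell markers 4 were lower in LN, at 100811 and 81254 against 123468 and 137016, and of 12 plasma cell markers 0 were called, at 159252 and 163583 against 140628 and 89476. Of 13 erythroblast markers 4 were lower, at 1715 and 1646 against 28469 and 5450. Their part in the tissue difference of the mitotic genes was not tested.

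In Wt mice 0 of the 48 genes were called between LN and spleen, where 3.09% of all genes were called higher in LN and 6.29% lower. For 15 of the 48 genes both Wt LN libraries lay below both Wt spleens, against 27% of all genes. The median difference was -0.31, 41 of 48 were negative, and at an unadjusted p under 0.05 the fit held 0 of the 48 and 2535 of all genes. Aurka had the smallest p, with -0.44 ± 0.21 (limma adjusted p = 0.235). It was at 150.0 and 159 in LN and 172 and 257 in spleen of Wt mice 1 and 2, so that both LN values lay below both spleen values. This comparison and the KI comparison with Wt share the Wt libraries. Leaving out Wt mouse 2 LN, or Wt mouse 2 in both tissues, gave 1 call, Cenpa.

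**Figure D4:**
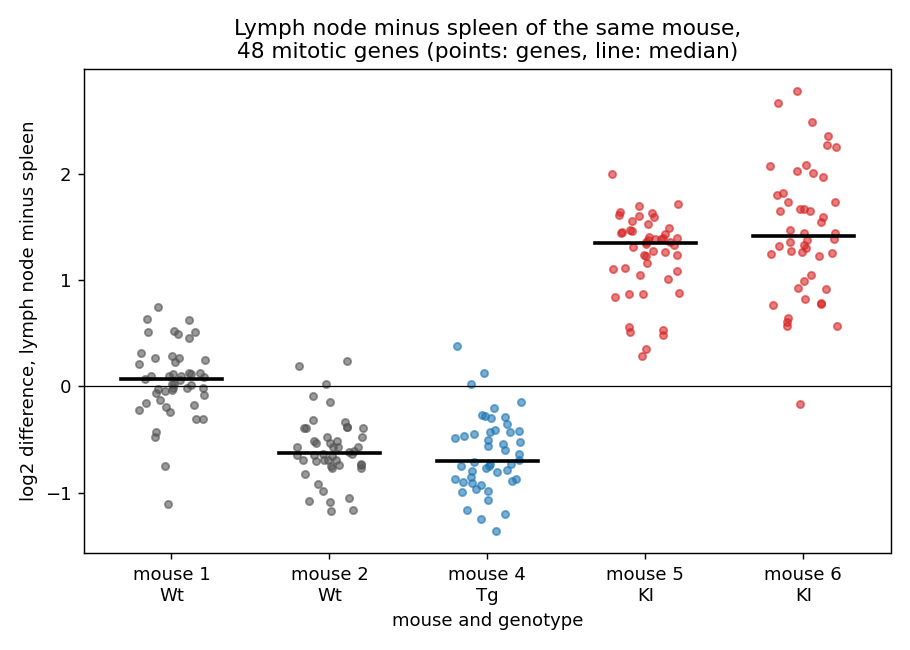
Each point is 1 of the 48 mitotic genes, as the log2 difference between LN and spleen of the same mouse, for the 5 mice with both tissues, and lines are medians. Both KI mice lie above 0 for nearly every gene, with medians of 1.35 and 1.41, whereas Wt mouse 2 and Tg mouse 4 lie mostly below 0.

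None of the 48 genes was called between Tg and Wt mice by the limma fit. In LN 0 genes were called, of the 48 and of all genes (0%), and the median of the 48 was -0.0034 with differences between -0.62 and 0.66. At an unadjusted p under 0.05 the limma fit held 1 of the 48 genes and 532 of all genes, and edgeR, limma-voom and DESeq2 on recovered reads each called 0 of the 48. Both Tg values lay above both Wt values for 6 of the 48 genes, against 12.7% of all genes, and below them for 3, against 14.6%. Cenpa had the smallest p, with 0.66 ± 0.26 (limma adjusted p = 0.96), followed by Smc2 with -0.47 ± 0.22 and Smc4 with -0.62 ± 0.31. Cenpa was higher in both Tg mice than in both Wt mice, and Smc2 was lower in both. The Tg mice also differed from each other: mouse 3 stood above mouse 4 for 43 of the 48 genes, against 49.3% of all genes. The 12 germinal centre B cell markers had higher sums in both Tg than in both Wt LN, with 0 of 12 called.

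In spleen the Tg group is 1 library, assumed in the fit to vary like the other groups. Again 0 of the 48 genes and 0% of all genes were called, with a median of 0.16, and at an unadjusted p under 0.05 the limma fit held 0 of the 48 genes and 164 of all genes. The Tg mouse 4 spleen lay above Wt mouse 1 for 44 of the 48 genes, against 52.2% of all genes. It lay above Wt mouse 2 for only 7, against 48.1% of all genes. It thus fell between the 2 Wt spleens for most genes. Kif18b, Kif11 and Cenpe had the smallest p, with 0.48 ± 0.40, 0.41 ± 0.41 and 0.50 ± 0.51 and adjusted p rounding to 1. The difference for Kif18b became -0.022 without Wt mouse 1.

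Against Tg mice, KI mice showed 44 of the 48 genes higher and 1 lower in LN, where 14.5% of all genes were called higher and 12.2% lower. This comparison shares the KI libraries with that against Wt. Kif15 had the smallest p, with 1.52 ± 0.25 (limma adjusted p = 0.00182), then Nuf2 with 1.80 ± 0.34 (limma adjusted p = 0.00363). Nuf2 was at 105 and 101 in the LN of Wt mice 1 and 2, 86.3 and 53.2 in that of Tg mice 3 and 4, and 256 and 222 in that of KI mice 5 and 6, so its Tg values were the 2 lowest in LN. The genes not called were Aurka, Racgap1 and Smc4. Smc2, which was not called against Wt, was called against Tg at 0.76 ± 0.22 (limma adjusted p = 0.0281). Cenpa was the gene called lower and fell by 1.01 on the log2 scale (limma adjusted p = 0.0218), a call lost when any of the 4 libraries was left out. Leaving out a library or mouse lowered the 45 calls each time, most without KI mouse 5. The median difference of the 48 genes then lay between 1.07 and 1.44. In spleen 0 of the 48 genes were called, where 3.35% of all genes were called higher and 4.35% lower. At an unadjusted p under 0.05 the limma fit held 9 of the 48 genes and 2839 of all genes. The median there was -0.63, and both KI spleens lay below the Tg spleen for 42 of the 48 genes, against 40.9% of all genes. Racgap1 had the smallest p, with -0.55 ± 0.19 (limma adjusted p = 0.0924).

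Other cell cycle genes outside the 48 were read from lists by function in the same LN comparison of KI with Wt, where 13.8% of all genes were called higher and 12.2% lower. Of 65 other mitotic genes 32 were higher and 0 lower, with a median of 0.80. The smallest p were those of Cdc25b, the phosphatase that activates Cdk1, with 1.04, of Aspm, a spindle pole protein, with 2.06, and of Spag5, a spindle protein, with 1.81. Of 39 S phase genes 15 were higher and 1 lower, with a median of 0.39. Pola1, the catalytic subunit of the priming polymerase, differed by 0.84 and Cdc45, part of the replicative helicase, by 0.88. The gene called lower was Cdt1, which licenses origins, at -0.44. Of 26 regulators of the DREAM, MuvB and E2F kind 8 were higher and 0 lower, with a median of 0.21. They included the activator genes E2f2 at 0.98 and E2f3 at 0.91, and Cdkn2c, an inhibitor of G1 kinases, at 1.18.

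Cohesin and the anaphase-promoting complex are machinery that is present through most of the cycle. Of 15 cohesin genes 2 were higher, Esco2, the acetyltransferase that establishes cohesion in S phase, at 1.79 and Cdca5, sororin, at 0.92, a share close to the 13.8% of all genes, and 0 were lower. The median was 0.08. Of 16 genes of the anaphase-promoting complex 1 was higher, Cdc23 at 0.67, and 0 were lower, with a median of 0.02. Cdc23 overlaps the exons of Kif20a on the other strand, as 7 of the 48 genes overlap a gene of the table: Ccna2 with Exosc9, Cdc20 with Elovl1, Cdca8 with 9930104L06Rik, Kif20a with Cdc23, Kif4 with Pdzd11, Ncapg with Lcorl and Prc1 with Rccd1 (GENCODE M21). The sources used here give no strand setting for the counting, so reads of such partners may not have been told apart. The difference between these lists and the 48 genes was not tested.

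**Figure D5:**
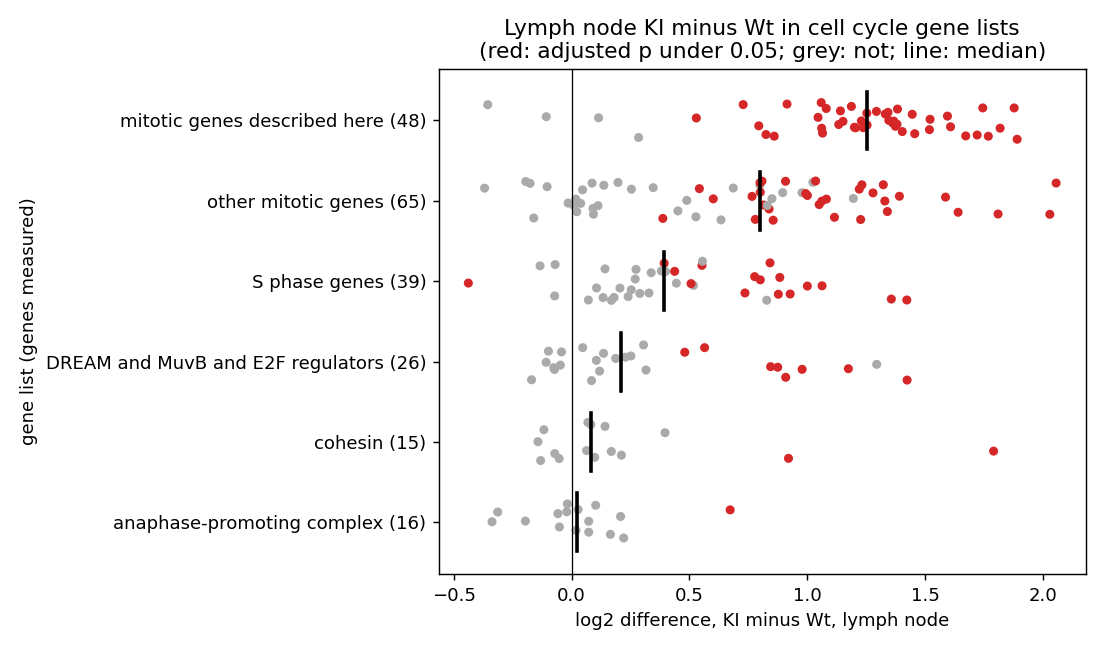
Each point is 1 gene, with its log2 difference between KI and Wt mice in LN, in the 48 mitotic genes and 5 other lists of cell cycle genes; red points were called by limma, grey points were not, and lines are medians. The medians run from 1.25 for the 48 genes over 0.80 for the other mitotic genes to 0.02 for the anaphase-promoting complex.

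The 48 genes also varied together outside the KI LN libraries. Over the 9 other libraries the median Pearson correlation of the 1128 gene pairs was 0.72, and 33 of the 48 genes correlated above 0.8 with the mean of the remaining 47. Over all 11 libraries, which include the high KI LN pair, the median was 0.90. These are descriptions over few libraries that share mice and library factors. The genes least like the others over 11 libraries were Cenpa at -0.30, Smc4 at 0.46, Racgap1 at 0.47, Ndc80 at 0.74 and Smc2 at 0.80. Over the 9 libraries Bub1 and Kif4 were among the closest, both at 0.97, and Ndc80 stood at 0.29. Ndc80 was nearly level in spleen, at 217 and 221 in Wt mice 1 and 2, 207 in Tg mouse 4 and 241 and 226 in KI mice 5 and 6, while the mean of the mitotic genes varied there.

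The 10 genes of the table outside the list whose levels correlated best with the mean of the 48 genes over the 11 libraries were Pif1 at 0.99, Pola1 at 0.98, Fancd2 and Esco2 at 0.97, and Kif14, Spag5, Gtse1, Rrm2, Kntc1 and Fignl1 at 0.96. Over the 9 libraries without KI LN, Pif1, a DNA helicase, remained at 0.96 and Pola1 at 0.94, and the lowest of the 10 was Fignl1 at 0.85. Of these 10 genes 7 stand in the lists of other mitotic, S phase or cohesin genes, whereas Pif1, Fancd2, a DNA repair protein, and Fignl1 stand in none of them.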

How the data were processed

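RNA of whole-tissue cells from spleen and LN was measured by RNA-seq in 11 libraries of 6 mice. The deposited table gives a normalised signal. From its values, the authors scaled the reads of each gene by a library factor: in every library 100% of values were whole multiples of 1 step within 0.05 reads. Per the submitters' processing notes the tools were STAR 2.5, featureCounts, Subread 1.4.6, DESeq2 1.26.0 and FastQC 0.11.5, and the build was GRCm39, with no roles named. The sources used here name no annotation release, strandedness or filter on genes. Each gene of the table reached at least 109.3 in some library.

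The signal was analysed with limma-trend 3.58.1 (R 4.3.3, robust and trend moderation) on log2(value + 1), with no filter. The table holds no raw counts, so the edgeR test planned only for such counts became an alternative on recovered LN reads. Replicates are separate mice. The subject label pairs the tissues of a mouse, and deviations from the group mean correlated between its tissues over genes at 0.403 in Wt and 0.900 in KI. The scripts were tested on simulated data.

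Alternatives were pseudocounts of 0.1 and 5, a mean of at least 100, removal of 197 immunoglobulin and haemoglobin genes, quantile normalisation, TMM factors, fits to the libraries compared, the mouse as a block (duplicateCorrelation, statmod 1.5.0, consensus correlation 0.0168, or a fixed term), leaving out libraries or mice, and on LN edgeR 4.0.16, limma-voom and DESeq2 1.42.0. The members and lists were chosen with earlier results of these data known. Members given with full statistics were the called ones, or the 12 of smallest p with at most 2 per role, and any of opposite sign; where none was called, the 3 of smallest p. Further members were picked as examples of their role after their values were seen. Promoter positions are of GRCm38.p6, not the build of the processing notes.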

Additional observations from a re-analysis of the deposited data

Results flagged for a closer look

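The KI difference from Wt was compared between LN and spleen by a test of the interaction itself. The limma fit called 3 of the 48 mitotic genes, all with the larger difference in LN: Kif2c at 2.18, Kif15 at 2.08 and Prc1 at 1.61 on the log2 scale. Of all genes 0.763% were called with a positive interaction, the LN difference minus the spleen difference, and 0.193% with a negative one. With the mouse as a block 32 of the 48 were called, and the block raised the calls over all 10885 genes as well, to 5.48% in either direction. In both KI mice Kif2c, Kif15 and Prc1 were each higher in LN than in spleen. The 3 calls of the fit without the block were fragile: each was lost in most fits without single libraries or mice. Kif2c and Prc1 also lost theirs after quantile normalisation (limma adjusted p = 0.0696 and 0.0572).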

How the results depend on the processing

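The 2 mice a group, and 1 in spleen Tg, limit these results, and calls moved with single libraries more than with scaling. Leaving out a library of a pair leaves 1 in its group and weakens the fit for every gene. The shares of all genes called in the leave-out fits and in the fits on recovered reads are not given here. The falls in count below are therefore not read as particular to the mitotic genes. Leaving out 1 library or mouse gave 9 to 35 calls of the 48 genes for KI against Wt in LN, 0 to 3 in spleen, 8 to 37 for KI against Tg in LN, 0 to 3 in spleen, 0 to 12 for the interaction, 0 to 1 for LN against spleen in Wt and 0 to 36 in KI, and 0 to 0 for Tg against Wt in both tissues. Without both tissues of a mouse, KI against Wt in LN gave 26 calls without mouse 1, 20 without mouse 2 and 14 without mouse 5, KI against Tg in LN gave 17 without mouse 4 and 14 without mouse 5, and LN against spleen in KI gave 10 without mouse 5. For KI against Wt in spleen quantile normalisation gave 2 calls and the fit to spleen alone 3, and for KI against Tg in spleen that fit gave 1. The interaction gave 5 calls without immunoglobulin and haemoglobin genes, 1 after quantile normalisation and 7 with Wt and KI libraries only, and the block by mouse gave 32. The block changed no other count by over 1.5 times: it left 44 calls for KI against Wt in LN, 1 in spleen and 0 for both Tg comparisons. For these genotype comparisons it was a random term with a consensus correlation of 0.0168. That fit was thus nearly the main one, and its counts could hardly move. On recovered LN reads edgeR called 41 of the 48 genes higher in KI than in Wt, limma-voom 41 and DESeq2 43. Signs turned in 8 cases: Kif18b in Tg against Wt spleen became -0.022 without Wt mouse 1 (its spleen, or both tissues; 0.97 without Wt mouse 2). Cenpa in LN against spleen of Wt became 0.020 without Wt mouse 1. Cenpa in KI against Wt LN became 0.072 without Wt mouse 2 (its LN, or both tissues; -0.78 without Wt mouse 1). Smc4 there became 0.038 without immunoglobulin and haemoglobin genes and 0.12 without Wt mouse 1 (its LN, or both tissues; -0.34 without Wt mouse 2). None of these signs belonged to a called difference, and the cause was not tested. Over the named genes 831 of 965 values kept direction and side of the threshold, 122 lost and 4 gained a call. Genes under about 109.3 normalised reads in all libraries could not be examined, which includes weakly expressed mitotic genes.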
